A study of Mus musculus with 25 samples.

Results

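The 42 collagen chain genes of the mouse table, those whose symbol is Col, a number, the letter a and a number, were followed among 20870 genes measured in the heart's pacemaker tissue and the adjoining atrium. Within this family, members were taken by name and by no measured value. The sinoatrial node (SAN) is the small band of cardiac tissue that starts each heartbeat, and the right atrium (RA) is the working muscle beside it. SAN and RA were cut from frozen sections by laser capture, with the outline drawn by eye, and total RNA from each piece was amplified by single primer isothermal amplification before sequencing. The first set holds 3 SAN and 3 RA libraries at each of 3 stages, which are E14.5 (a day of embryonic life), P4 and P14 (days after birth). All came from Hcn4-GFP mice on a mixed background, which are named for a green fluorescent protein reporter of the pacemaker channel gene Hcn4. The second set holds 7 SAN libraries from E12.5 embryos exposed to tamoxifen at E10.5. In it, all libraries carry Hcn4-GFP and are Isl1 fl/fl. The 3 CrePos libraries carry CAG-Cre/Esr1 as well, and the 4 CreNeg libraries do not. CAG is a promoter active in most cell types, so the tamoxifen-activated Cre is not limited to the node, and both groups carry the floxed alleles of Isl1, a transcription factor gene of the node. One CrePos library, replicate 2, is called an outlier in its own title. It was left out of the fit and is described apart.

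Collagens are triple-helical proteins of the extracellular matrix, each assembled from chains encoded by separate genes. Fibrillar collagens such as types I, III and V form the tensile fibrils of heart connective tissue and are made mainly by fibroblasts. Type IV forms the sheet-like network of basement membranes around muscle cells and vessels, type VI forms beaded filaments next to cells, and other types decorate fibrils, link basement membranes to the matrix or span the cell membrane. The node is known as a tissue in which pacemaker cells lie embedded in more collagen than working atrial muscle. By class, the 42 genes comprised 11 fibrillar chains, 6 chains of type IV, 6 of type VI, 8 fibril-associated chains, 3 of types VIII and X, 2 multiplexins, 4 transmembrane chains, the type VII chain Col7a1 and the type XXVIII chain Col28a1.

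The deposited values, reads divided by a factor for each library, were all divided by the same constant, and the result is called CPM here. The scaling between libraries is thus the deposited one, and CPM does not sum to the same total in each library: the totals were 991511 to 1217352 CPM in the 18 SAN and RA libraries, 632389 and 745860 CPM in CrePos replicates 3 and 1, 712861 CPM in CrePos replicate 2 and 775974 to 890185 CPM in CreNeg. One read was worth 0.0617 to 0.215 CPM in the 18 SAN and RA libraries (5101711 to 17997497 reads recovered per library) and 0.00823 to 0.0177 CPM in the Isl1 set (45298052 to 88020474 reads). The summed level of the node genes Hcn4, Isl1, Tbx3 and Shox2 was 1697 to 5063 CPM in the 9 SAN libraries and 20.8 to 50.7 CPM in the 9 RA libraries, so each library stood with its label. Myl2, a myosin gene of ventricular muscle, reached 829 CPM in SAN E14.5 replicate 1, against 1.60 and 14.14 CPM in SAN E14.5 replicates 2 and 3. Which animal gave which library is not in the labels. The spread behind each p-value is therefore that among libraries and may be partly technical. In captured pieces of tissue, more cells of a collagen-producing type and more collagen RNA per cell cannot be told apart. The 2 sets were fitted separately and levels are not compared between them.

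Together the 42 genes took a larger share of the RNA at P4 and P14 than at E14.5 in both tissues, and a larger share in SAN than in RA at P14. Between P4 and P14 the share grew in SAN, while the RA ranges overlapped. They made up 0.355, 0.403 and 0.605% of the reads in the SAN libraries at E14.5, 0.916, 1.37 and 1.39% at P4 and 2.39, 2.11 and 1.97% at P14. In RA they made up 0.352, 0.379 and 0.383% at E14.5, 0.635, 1.10 and 1.06% at P4 and 0.950, 1.24 and 1.09% at P14. The SAN and RA ranges overlapped at E14.5 and P4 and did not overlap at P14. Col1a1, Col1a2 and Col3a1, the chains of types I and III, supplied 73.2 ± 1.26% of the collagen sum in SAN at P14 and 62.6 ± 1.87% in RA at P14 (SD, n = 3 each). At E14.5 their share was 53.4 ± 8.02% in SAN and 43.8 ± 5.03% in RA. The 6 type IV chains supplied 8.35 ± 0.559% in SAN and 16.1 ± 1.01% in RA at P14, so that the makeup of the sum differed between the tissues by more than the spread of either.

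**Figure D1:**
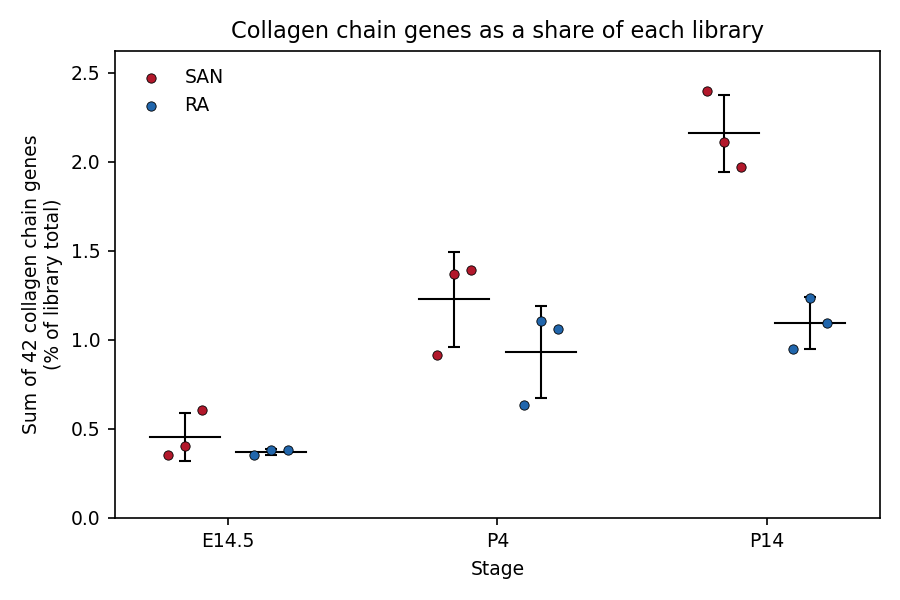
Summed CPM of the 42 collagen chain genes as a percentage of all reads of a library, at E14.5, P4 and P14. Points are libraries, SAN in red left of RA in blue, and lines give the mean ± SD of 3 libraries; the 3 SAN libraries at P14 lie between 1.97% and 2.39%, above every RA library.

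Levels spanned the range from among the most abundant transcripts to no reads. Per kilobase of gene model, Col3a1 was the highest member in all 6 groups, Col1a1 and Col1a2 were next in either order, and the basement membrane chains Col4a1 and then Col4a2 followed. At P14 in SAN the mean level per kilobase was 1331 ± 83.5 CPM for Col3a1, 862 ± 100.4 for Col1a2, 790.4 ± 161 for Col1a1, 114 ± 15.7 for Col4a1 and 104 ± 10.6 for Col4a2 (SD, n = 3). Col1a1 did not differ from Col1a2, nor Col4a1 from Col4a2, beyond that spread. In RA at P14 the same 5 genes had 636 ± 135, 287 ± 45.96, 312 ± 37.7, 124 ± 19.5 and 113 ± 11.8 CPM per kilobase. In all, 17 members had at least 5 CPM in each of the 18 libraries, 18 reached 5 CPM in some of them, and 7 never did: Col6a4, Col7a1, Col8a2, Col9a3, Col11a2, Col17a1 and Col22a1. Col6a4 alone failed the filter of at least 1 CPM in at least 3 libraries, which left 41 members for testing among 17568 genes.

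Between SAN and RA, most members that differed were higher in SAN. Each gene was tested with limma on log2(CPM + 1), a scale that understates the change of low genes. A gene was called when its p, adjusted by the Benjamini-Hochberg method across every tested gene, was under 0.05. Averaged over the 3 stages, 14 of 41 members were called, 12 higher and 2 lower in SAN. Of all genes tested 11.5% were called, 6.11% higher and 5.36% lower. The median log2 difference was 0.54 over the members and -0.01 over all genes tested. The 12 comprised the type I chains Col1a1 and Col1a2, 4 type IV chains (Col4a3 to Col4a6), 3 type VI chains (Col6a1, Col6a2 and Col6a3), Col15a1, Col8a1 and Col9a3, and the 2 that were lower were the transmembrane chains Col23a1 and Col25a1. At E14.5 5 were called, 4 of them higher in SAN and 1 lower, with 5.33% of all genes called (2.24% higher and 3.09% lower). At P4 9 were called, 7 higher and 2 lower, with 5.96% of all genes (2.97% higher and 2.99% lower). At P14 10 were called, 9 higher and 1 lower, with 4.55% of all genes (3.21% higher and 1.34% lower). Col23a1 was the one member called in the same direction at all 3 stages. Of the 14 calls over the mean of stages, 13 held under every alternative and every left-out library, and Col9a3 did not. At P14 the count was 3 without SAN P14 replicate 1 or without RA P14 replicate 1, and 4 without replicate 2 of either tissue.

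**Figure D2:**
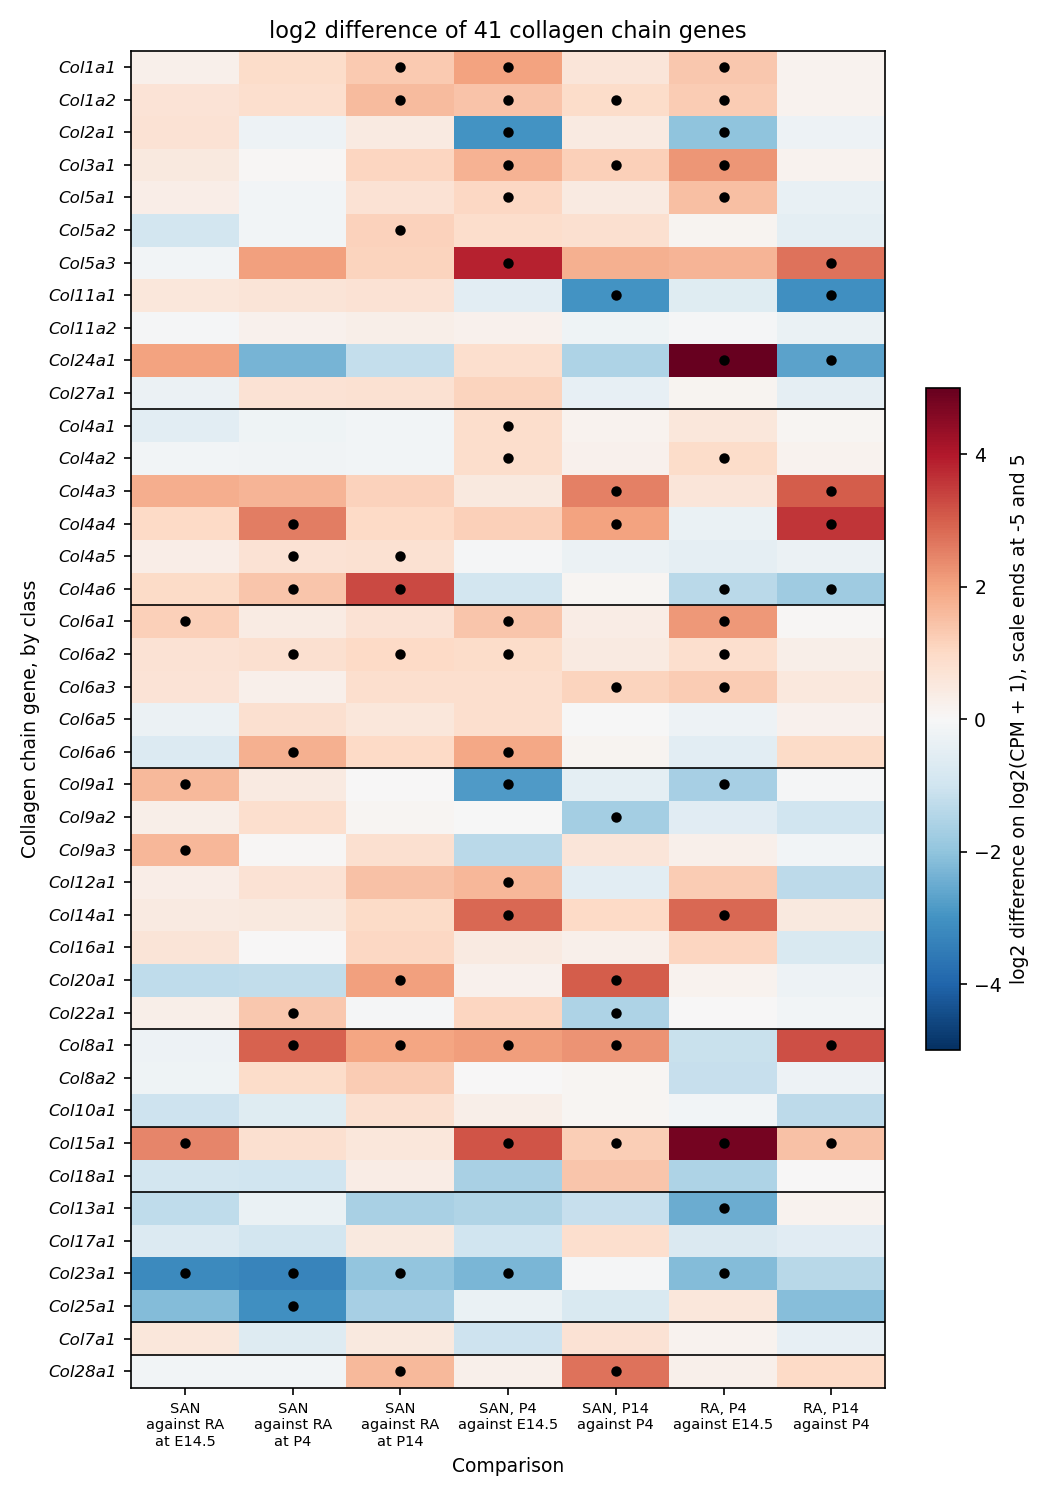
Log2 difference on the log2(CPM + 1) scale of the 41 tested members, grouped by class, in 7 comparisons. Red cells are higher and blue cells are lower in the group named first on the axis, and a black dot marks limma adjusted p under 0.05. The column of SAN against RA at P14 holds 9 dots on red cells and 1 on a blue cell.

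Between P14 and E14.5 the chains of types I and III, Col5a1 and Col5a3, Col6a1 to Col6a3 and Col4a1 to Col4a4 rose in both tissues, while 4 chains best known from cartilage and 2 transmembrane chains fell in both. In SAN, 17 of 41 members were called between P4 and E14.5 (14 rose and 3 fell), with 8.24% of all genes called (3.85% higher and 4.39% lower). For P14 against P4 the count was 12 (9 rose and 3 fell), with 5.59% of all genes (2.68% higher and 2.91% lower). For P14 against E14.5 it was 25 (19 rose and 6 fell), with 24.3% of all genes (9.74% higher and 14.5% lower). In RA, 16 were called between P4 and E14.5 (11 rose and 5 fell), with 6.79% of all genes (3.23% higher and 3.56% lower). For P14 against P4 the RA count was 8 (5 rose and 3 fell), with 6.76% of all genes (1.34% higher and 5.42% lower). For P14 against E14.5 it was 27 (17 rose and 10 fell), with 22.7% of all genes (5.99% higher and 16.7% lower). The median log2 difference of the members between P14 and E14.5 was 0.79 in SAN and -0.02 in RA, where the median over all genes tested was -0.18 in SAN and -0.37 in RA. With DESeq2 size factors the median of all genes became 0.00 in SAN and -0.06 in RA, and the RA split became 17 that rose and 6 that fell (7 with equal upper quartiles). The SAN and RA stage comparisons use separate libraries: 16 members rose in both, 84.2% of those that rose in SAN and 94.1% of those that rose in RA. Over all genes tested, the genes that rose in both were 37.5% of those that rose in SAN and 61.0% of those that rose in RA. In both tissues 6 members fell, 100% of those that fell in SAN and 60% of those that fell in RA, against 58.8% and 51.1% over all genes tested. The summed level of 12 fibroblast marker genes was 1150 to 1615 CPM at E14.5, 2012 to 6394 at P4 and 4492 to 5540 at P14 in SAN, and 797 to 1122, 4178 to 8617 and 3337 to 4020 at the same stages in RA. Of those markers, 7 rose in SAN and 9 in RA between P14 and E14.5, where 9.74% of all genes rose in SAN and 5.99% in RA. Over the mean of stages 7 were higher in SAN than in RA, with 6.11% of all genes higher. No marker of the list was at 0 in a group. The part of fibroblasts in the collagen differences was not tested.

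The type I chains, which form the main fibrils of cardiac connective tissue, rose after birth in both tissues and were higher in SAN over the mean of stages. Col1a2 had 624, 956 and 1166 CPM in SAN at E14.5, 1812, 2723 and 2793 CPM at P4 and 5092, 4703 and 4030 CPM at P14. In RA it had 484, 521 and 659 CPM at E14.5, 849.9, 1765 and 1602 CPM at P4 and 1260, 1728 and 1623 CPM at P14. The SAN libraries lay above all RA libraries at P4 and P14 and overlapped with them at E14.5. The log2 difference between SAN and RA at P14 was 1.59 ± 0.25 (SE; limma, adjusted p = 3.6e-04). The rise between P14 and E14.5 was 2.37 ± 0.25 (SE; limma, adjusted p = 6.5e-07) in SAN and 1.47 ± 0.25 (SE; limma, adjusted p = 1.9e-04) in RA. Its partner Col1a1 had 5357, 5110 and 3595 CPM in SAN at P14, against 1656, 1802 and 2095 CPM in RA at P14, with a log2 difference of 1.32 ± 0.34 (SE; limma, adjusted p = 0.025). The call was lost without the filter on low values and with equal upper quartiles (1.15 to 1.32) and without any one of SAN P14 replicates 1 and 2 and RA P14 replicates 1 and 2 (1.22 to 1.31). At E14.5 Col1a1 had 405, 699.5 and 1525 CPM in SAN, where replicate 3 stood above the other libraries, and 488, 712 and 718 CPM in RA, and the groups overlapped. Without that SAN library the rise of Col1a1 between P14 and E14.5 in SAN was still called.

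Col3a1, the type III chain that co-assembles into type I fibrils, rose by 2.95 ± 0.34 (SE; limma, adjusted p = 1.9e-06) on the log2 scale in SAN and by 2.36 ± 0.34 (SE; limma, adjusted p = 2.8e-05) in RA between P14 and E14.5. It had 7520, 6892 and 7799 CPM in SAN at P14, against 2843, 4333 and 3434 CPM in RA at P14. No SAN library overlapped with an RA library at that stage, but the log2 difference of 1.09 ± 0.34 (SE; limma, adjusted p = 0.075) did not pass the threshold. In SAN the level rose further between P14 and P4, by 1.20 ± 0.34 (SE; limma, adjusted p = 0.038). This call was lost without the filter on low values and with edgeR (1.12 to 1.20) and without any one of SAN P4 replicate 1 and SAN P14 replicates 1, 2 and 3 (0.84 to 1.26). In RA the same step gave 0.17 ± 0.34 (SE; limma, adjusted p = 0.83). Among the type V chains, which regulate fibril width, Col5a1 rose between P14 and E14.5 by 1.51 ± 0.26 (SE; limma, adjusted p = 1.8e-04) in SAN and by 1.11 ± 0.26 (SE; limma, adjusted p = 0.0034) in RA.

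Col5a2, the other main type V chain, changed in SAN and not detectably in RA, and the difference between the 2 changes was itself called. That difference, the SAN change minus the RA change between P14 and E14.5, was called for 3 of 41 members (Col4a6, Col5a2 and Col20a1, all positive), with 2.27% of all genes called (1.64% positive and 0.632% negative). Both other scalings gave 3 positive and 1 negative. Col5a2 had 96.5, 93.6 and 159 CPM in SAN at E14.5, 118, 229 and 341 CPM at P4 and 337, 428 and 339 CPM at P14. In RA it had 206, 248 and 185 CPM at E14.5, 192, 340.1 and 194 CPM at P4 and 164, 149 and 179 CPM at P14. SAN thus lay below RA at E14.5, overlapped with it at P4 and lay above it at P14. The change between P14 and E14.5 was 1.69 ± 0.29 (SE; limma, adjusted p = 2.1e-04) in SAN and -0.37 ± 0.29 (SE; limma, adjusted p = 0.40) in RA. The SAN change minus the RA change was 2.06 ± 0.42 (SE; limma, adjusted p = 0.0100). At P14 the log2 difference between SAN and RA was 1.16 ± 0.29 (SE; limma, adjusted p = 0.023). That call was lost with equal upper quartiles (0.98) and without any one of SAN P14 replicates 1, 2 and 3 and RA P14 replicates 1 and 2 (1.04 to 1.21). Per kilobase, Col5a2 stood at 0.567 ± 0.0682 of Col5a1 in SAN at E14.5 and at 1.33 ± 0.0575 in RA at E14.5, against 0.650 ± 0.131 in SAN and 0.476 ± 0.0467 in RA at P14 (SD, n = 3 each). The minor type V chain Col5a3 had 0.145, 0 and 0 CPM in SAN at E14.5 and 95.2, 48.8 and 28.9 CPM at P14, and it rose by 5.64 ± 0.64 (SE; limma, adjusted p = 1.5e-06) in SAN and by 4.41 ± 0.64 (SE; limma, adjusted p = 3.1e-05) in RA.

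Col24a1, a fibrillar chain known from bone and cornea, followed another course. In RA it had 2.71, 1.84 and 2.14 CPM at E14.5, 90.1, 123 and 146 CPM at P4 and 17.5, 22.2 and 13.6 CPM at P14, so that P4 was the highest stage. The log2 difference in RA was 5.20 ± 0.76 (SE; limma, adjusted p = 1.0e-04) between P4 and E14.5 and -2.68 ± 0.76 (SE; limma, adjusted p = 0.037) between P14 and P4. The second of these calls was lost without the filter on low values, with equal upper quartiles, with DESeq2 size factors and with DESeq2 (-2.68 to -2.37) and without any one of RA P4 replicates 1, 2 and 3 and RA P14 replicates 1, 2 and 3 (-2.87 to -2.51). In SAN the P4 libraries ranged widely, with 2.48, 26.7 and 134 CPM, against 7.23, 15.1 and 15.7 CPM at E14.5 and 6.87, 11.3 and 4.48 CPM at P14, and no SAN step was called. Col27a1 and Col11a2, the remaining fibrillar chains, were called in none of the 11 comparisons of the 18 libraries.

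Of the chains best known from cartilage, the fibrillar Col2a1 and Col11a1 and the fibril-associated Col9a1 and Col9a2 fell after birth in both tissues. Col9a3 and Col11a2 were called in no comparison between stages, and Col10a1 was called lower at P14 than at E14.5 in RA alone. Col11a1 had 37.5, 23.00 and 25.3 CPM in SAN at E14.5, 10.8, 14.4 and 43.1 CPM at P4 and 2.37, 2.00 and 0.640 CPM at P14, and in RA 13.7, 24.1 and 19.8, 5.29, 16.7 and 18.1 and 1.31, 0 and 0.591 CPM at the same stages. P14 lay below the earlier stages in each tissue, and the log2 difference between P14 and P4 was -2.97 ± 0.55 (SE; limma, adjusted p = 0.0027) in SAN and -3.06 ± 0.55 (SE; limma, adjusted p = 0.0019) in RA. Col9a1 had 9.90, 9.25 and 7.82 CPM in SAN at E14.5 and 0.902, 2.40 and 4.45 CPM in RA at E14.5, and no read in any of the 6 libraries at P14. Against the mean of each library's 3-read limit, P14 was at least 30.5-fold lower than E14.5 in SAN (limma, adjusted p = 5.0e-06) and at least 6.75-fold lower in RA (limma, adjusted p = 0.0041); such limits cover counting error only. Between SAN and RA at E14.5 Col9a1 differed by 1.60 ± 0.41 (SE; limma, adjusted p = 0.021). The call was lost with a pseudocount of 0.5, with edgeR and with DESeq2 (1.79 to 1.82) and without any one of SAN E14.5 replicates 1 and 2 and RA E14.5 replicates 1 and 2 (1.21 to 1.63). Col9a2 had 6.94, 1.91 and 2.21 CPM in SAN at E14.5 and 0.491, 0.400 and 0 CPM at P14, and in RA 1.58, 4.61 and 1.87 CPM at E14.5 and 0.146, 0.268 and 0.147 CPM at P14. The P14 libraries lay below the E14.5 libraries in each tissue. The log2 difference between P14 and E14.5 was -1.72 ± 0.50 (SE; limma, adjusted p = 0.014) in SAN, a call lost without any one of SAN E14.5 replicate 1 and SAN P14 replicate 3 (-1.54 to -1.26), and -1.55 ± 0.50 (SE; limma, adjusted p = 0.028) in RA, a call lost with DESeq2 size factors (-1.39) and without any one of RA E14.5 replicate 2 and RA P14 replicates 1, 2 and 3 (-1.59 to -1.20). Col2a1 was spread widely within SAN at E14.5 with 15.7, 1.42 and 12.8 CPM. At P14 it had 0, 1.87 and 0 CPM in SAN, and the SAN groups of these stages overlapped. Its fall between P14 and E14.5 was -2.54 ± 0.59 (SE; limma, adjusted p = 0.0029) in SAN, a call lost with edgeR (-4.07), and -2.25 ± 0.59 (SE; limma, adjusted p = 0.0078) in RA. Col9a3 was called higher in SAN at E14.5 and over the mean of stages, but 7.68% of its exon bases lie opposite exons of Tcfl5 and the counting strand is not given, so its reads are uncertain. Its means were under 5 CPM, and it is named here after its values were seen. The summed level of 5 cartilage and valve markers was 31.5 to 46.7, 57.98 to 148 and 41.1 to 58.8 CPM in SAN at E14.5, P4 and P14, and 14.6 to 24.1, 43.6 to 108 and 29.6 to 50.95 CPM in RA, with Acan at 0 in SAN at E14.5, Comp at 0 in SAN at P4 and P14, and Chad at 0 in SAN at P4 and in RA at P4 and P14. For P14 relative to E14.5, Acan rose and Lect1 fell in SAN and Comp rose in RA, and the part of such cells in the falls was not tested.

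The fibril-associated chains Col14a1 and Col12a1 sit on the surface of type I fibrils. Col14a1 was higher at P4 than at E14.5 in both tissues, with 34.4, 27.5 and 67.7 CPM at E14.5, 134, 342 and 603 CPM at P4 and 659.5, 516 and 630 CPM at P14 in SAN. The RA libraries had 32.1, 27.6 and 28.1 CPM at E14.5, 168, 282 and 218 CPM at P4 and 275, 394 and 267 CPM at P14. All P4 libraries lay above all E14.5 libraries, and the log2 difference between P4 and E14.5 was 2.89 ± 0.37 (SE; limma, adjusted p = 3.8e-05) in SAN and 2.86 ± 0.37 (SE; limma, adjusted p = 3.2e-05) in RA. Col12a1 was called once, in SAN between P4 and E14.5 (1.64 ± 0.49 SE; limma, adjusted p = 0.040). This call was lost without the filter on low values (1.64) and without any one of SAN E14.5 replicates 1, 2 and 3 and SAN P4 replicates 2 and 3 (0.94 to 1.75). Col20a1, another chain of the class, was low except in SAN at P14, where it had 25.5, 15.9 and 15.3 CPM, against 3.07, 4.46 and 3.69 CPM in RA at P14. It rose by 3.04 ± 0.53 (SE; limma, adjusted p = 0.0017) between P14 and P4 in SAN, and its SAN change minus its RA change between P14 and E14.5 was 3.32 ± 0.75 (SE; limma, adjusted p = 0.022). The second call was lost without any one of SAN E14.5 replicate 1, SAN P14 replicate 1, RA E14.5 replicates 2 and 3 and RA P14 replicate 1 (3.04 to 3.23). Col22a1, known from tissue junctions, was called higher in SAN at P4, with 1.28, 1.70 and 3.13 CPM against 0.102, 0.419 and 0 CPM in RA, and had no read in the 3 SAN libraries at P14. Its P14 level was at least 6.91-fold lower than at P4 in SAN (limma, adjusted p = 0.012), a call that edgeR did not make. The call between the tissues at P4 was lost with edgeR (3.36) and without any one of RA P4 replicates 1 and 3 (1.24 to 1.31). It never reached 5 CPM and is named here after its values were seen, and Col16a1 was called in no comparison of the 18 libraries.

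**Figure D3:**
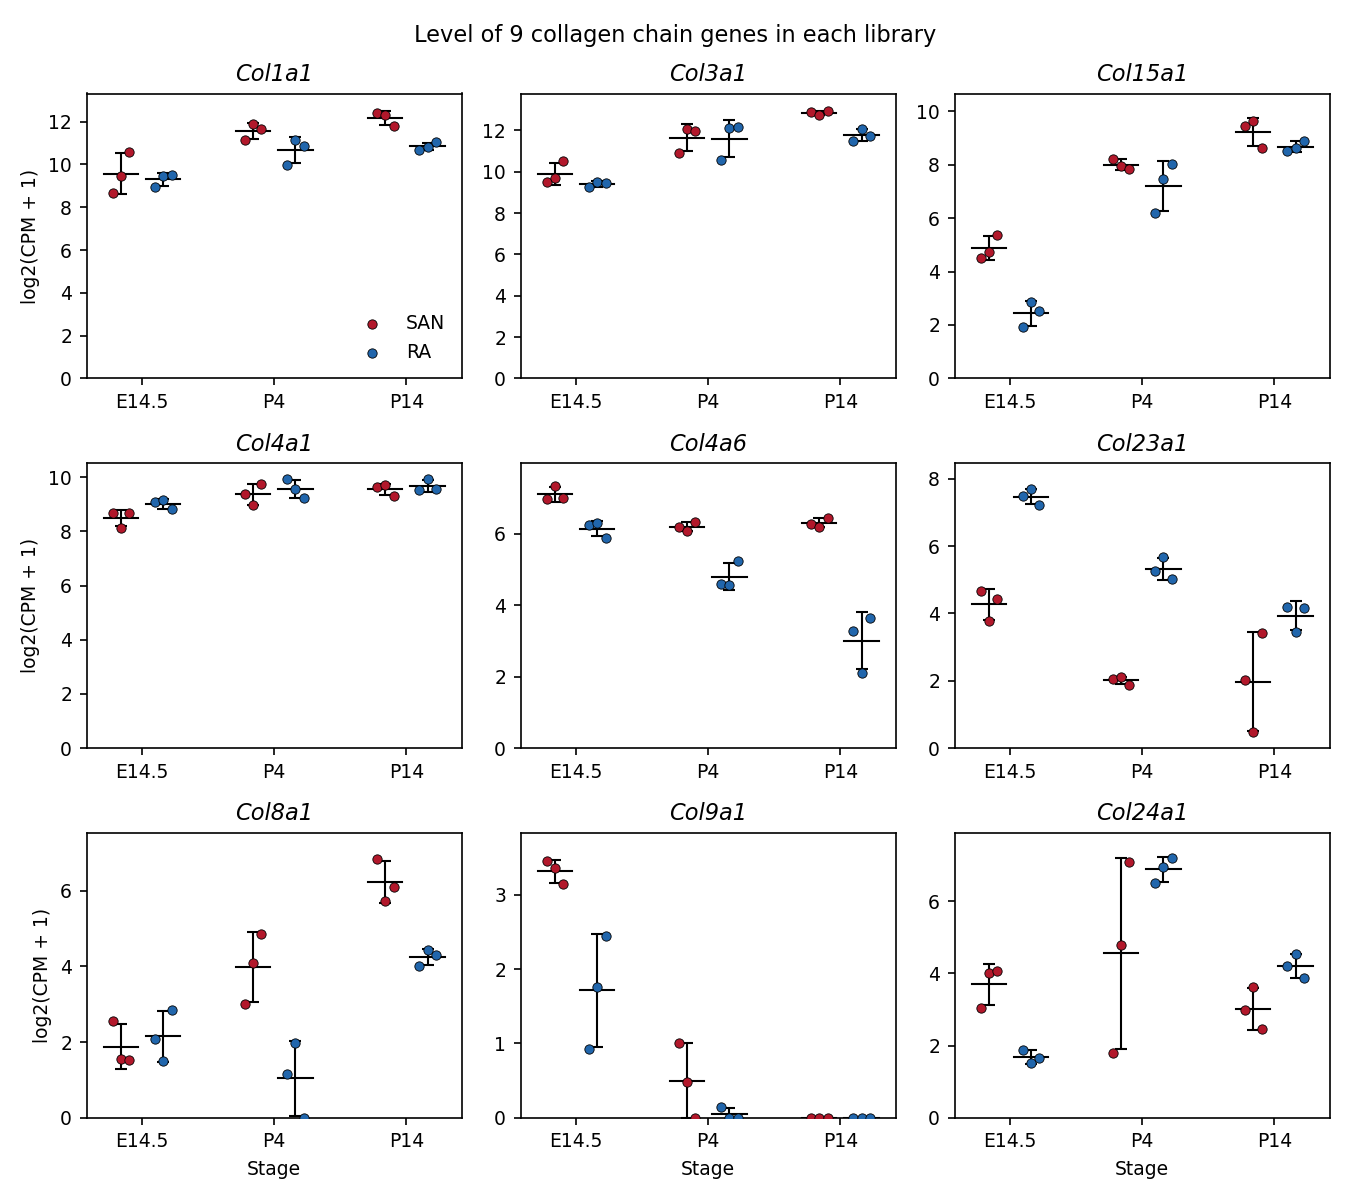
Level of 9 members as log2(CPM + 1) at E14.5, P4 and P14, each panel with its own axis from 0. Points are libraries, SAN in red left of RA in blue, and lines give the mean ± SD of 3 libraries; Col4a6 and Col23a1 separate the tissues at all 3 stages in opposite directions, and Col9a1 is at 0 in all 6 P14 libraries.

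Of the 5 type VI chains tested, 3 were higher in SAN over the mean of stages and none was lower. Col6a1, which pairs with Col6a2 and another chain such as Col6a3 in one trimer, had 77.9, 68.8 and 145 CPM in SAN at E14.5, against 35.9, 42.9 and 40.97 CPM in RA at E14.5. Those groups did not overlap, and the log2 difference was 1.19 ± 0.22 (SE; limma, adjusted p = 0.0019). Over the mean of stages the log2 difference between SAN and RA was 0.77 ± 0.13 (SE; limma, adjusted p = 2.0e-04) for Col6a1, 0.84 ± 0.14 (SE; limma, adjusted p = 1.4e-04) for Col6a2 and 0.61 ± 0.15 (SE; limma, adjusted p = 0.0089) for Col6a3. Between P14 and E14.5 the 3 chains rose by 1.76, 1.38 and 1.94 in SAN and by 2.24, 1.13 and 1.79 in RA. Col6a2 at P14 had 756, 556 and 416 CPM in SAN, against 266, 247 and 347 CPM in RA, and the log2 difference was 0.98 ± 0.24 (SE; limma, adjusted p = 0.016). That call was lost without any one of SAN P14 replicate 1 and RA P14 replicates 1 and 2 (0.76 to 0.93). Col6a6, a chain that can stand in for Col6a3, was higher in SAN at P4, with 132, 127 and 79.8 CPM against 12.00, 51.3 and 49.7 CPM in RA, a log2 difference of 1.77 ± 0.40 (SE; limma, adjusted p = 0.0070). At E14.5 its SAN libraries (22.8, 31.7 and 31.9 CPM) all lay below its RA libraries (53.2, 54.3 and 34.65 CPM), a difference that was not called. The related Col6a5 was called in no comparison, and Col6a4 had at most 0.493 CPM in any of the 18 libraries.

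The type IV chains are encoded in head-to-head gene pairs, and 4 of the 6 were higher in SAN over the mean of stages. The promoter windows are shown because the 2 genes of a pair start close together on opposite strands; their ratios are given after the sequences. Each window runs from 250 bases before to 50 after the annotated start (RefSeq, GRCm38.p6), read along the gene's own strand, and capitals mark matches, on either strand, to the CCAAT box CCAAT and the GC box GGGCGG. The windows lie at chr8:11312777-11313076 (minus strand) for Col4a1, chr8:11312555-11312854 (plus strand) for Col4a2, chrX:141475169-141475468 (plus strand) for Col4a5 and chrX:141474027-141474326 (minus strand) for Col4a6.
Col4a1: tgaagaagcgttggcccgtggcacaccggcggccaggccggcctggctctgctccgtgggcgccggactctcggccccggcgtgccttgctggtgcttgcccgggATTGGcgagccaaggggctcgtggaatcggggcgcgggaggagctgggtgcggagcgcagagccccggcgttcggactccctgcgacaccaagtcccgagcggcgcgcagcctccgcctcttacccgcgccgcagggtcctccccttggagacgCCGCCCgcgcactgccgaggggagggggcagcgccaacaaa
Col4a2: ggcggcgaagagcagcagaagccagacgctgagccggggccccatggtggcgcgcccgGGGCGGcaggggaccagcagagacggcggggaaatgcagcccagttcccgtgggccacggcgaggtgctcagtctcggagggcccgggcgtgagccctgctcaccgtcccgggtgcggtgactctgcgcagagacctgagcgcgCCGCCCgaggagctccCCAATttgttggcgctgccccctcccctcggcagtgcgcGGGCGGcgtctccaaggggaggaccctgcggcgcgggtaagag
Col4a5: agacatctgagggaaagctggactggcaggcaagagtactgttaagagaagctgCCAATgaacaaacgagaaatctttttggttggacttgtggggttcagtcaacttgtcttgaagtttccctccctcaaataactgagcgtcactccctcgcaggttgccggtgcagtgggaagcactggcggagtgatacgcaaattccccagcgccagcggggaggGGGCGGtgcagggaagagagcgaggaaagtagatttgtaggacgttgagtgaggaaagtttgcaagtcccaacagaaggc
Col4a6: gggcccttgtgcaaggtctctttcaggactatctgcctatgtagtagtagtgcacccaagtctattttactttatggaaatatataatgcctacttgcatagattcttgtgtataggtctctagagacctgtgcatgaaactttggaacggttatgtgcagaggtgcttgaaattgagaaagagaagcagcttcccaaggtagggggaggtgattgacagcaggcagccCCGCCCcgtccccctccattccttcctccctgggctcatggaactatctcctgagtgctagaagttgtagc

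The starts of Col4a1 and Col4a2 are 21 bases apart, so their windows overlap, and those of Col4a5 and Col4a6 are 1343 bases apart. The Col4a1, Col4a2 and Col4a5 windows each hold a CCAAT match and all 4 hold at least 1 GC box match. Of the 42 members 34 had an entry, with 37 windows in all. A CCAAT match was present in 13 of the 37 (35.1%), against 37.4% of 32851 windows of all genes, a GC box match in 23 (62.2%, against 35.7%) and the TATA box TATAAA in 5 (13.5%, against 13.6%). These matches are descriptions of letters and were not tested against the levels.

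Col4a1 and Col4a2, the chains of the common basement membrane network, were present in all libraries at close levels, and neither was called between SAN and RA at any stage. Col4a1 had 785, 837 and 637 CPM in SAN at P14 and 739, 970.4 and 755 CPM in RA at P14, and the groups overlapped, while at E14.5 all SAN libraries (408, 280.4 and 407 CPM) lay below all RA libraries (545, 571 and 449 CPM). Over the mean of stages the log2 difference between SAN and RA was -0.29 ± 0.12 (SE; limma, adjusted p = 0.15) for Col4a1 and -0.15 ± 0.11 (SE; limma, adjusted p = 0.49) for Col4a2. At P14 relative to E14.5 Col4a2 rose by 1.12 ± 0.19 (SE; limma, adjusted p = 1.7e-04) in SAN and by 1.10 ± 0.19 (SE; limma, adjusted p = 2.1e-04) in RA. Col4a1 rose by 1.05 ± 0.21 (SE; limma, adjusted p = 8.8e-04) in SAN and by 0.65 ± 0.21 (SE; limma, adjusted p = 0.031) in RA, and the call in RA was lost without any one of RA E14.5 replicates 1 and 3 and RA P14 replicate 2 (0.53 to 0.69). The level of Col4a2 over that of Col4a1, per kilobase, was 0.916 ± 0.0506 in SAN and 0.918 ± 0.0513 in RA at P14, and lowest in RA at E14.5 (0.671 ± 0.0377, against 0.875 ± 0.0410 in SAN at E14.5; SD, n = 3 each). Endothelial cells make basement membrane too. Of 8 endothelial markers 6 were lower in SAN over the mean of stages, with 5.36% of all genes lower. Their sums were 477 to 836 CPM in SAN and 1871 to 2403 CPM in RA at E14.5. At P4 the sums were 626 to 967 CPM in SAN and 1725 to 2196 CPM in RA, and at P14 1047 to 1113 CPM in SAN and 1907 to 2255 CPM in RA. The part of endothelial cells in the type IV levels was not tested.

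Col4a5 and Col4a6, the X-linked pair whose products form a separate network around smooth muscle and some epithelia, were both higher in SAN over the mean of stages, and the stage change of Col4a6 differed between the tissues. Col4a6 had 125, 161 and 128 CPM in SAN at E14.5, 72.2, 66.3 and 79.7 CPM at P4 and 77.2, 72.9 and 86.6 CPM at P14. In RA it had 75.6, 77.5 and 58.7 CPM at E14.5, 23.2, 22.7 and 37.2 CPM at P4 and 8.76, 3.30 and 11.5 CPM at P14. No SAN library overlapped with an RA library at any stage. The log2 difference between SAN and RA was 1.39 ± 0.31 (SE; limma, adjusted p = 0.0063) at P4 and 3.30 ± 0.31 (SE; limma, adjusted p = 3.0e-07) at P14, while at E14.5 it was 0.96 ± 0.31 (SE; limma, adjusted p = 0.078) and was not called. Col4a6 changed by -0.79 ± 0.31 (SE; limma, adjusted p = 0.066) in SAN between P14 and E14.5, which was not called, and fell by 3.14 ± 0.31 on the log2 scale in RA (SE; limma, adjusted p = 2.6e-07). The SAN change minus the RA change was 2.35 ± 0.44 (SE; limma, adjusted p = 0.0056). The calls of Col4a6 named here held under every alternative and every left-out library.

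Col4a5 had 258, 268 and 269 CPM at E14.5 and 201, 225 and 198 CPM at P14 in SAN. The RA libraries had 203, 237 and 191 CPM at E14.5 and 119, 125 and 124 CPM at P14, and SAN lay above RA at both stages. Its change between P14 and E14.5 in RA was -0.77 ± 0.18 (SE; limma, adjusted p = 0.0035). The call was lost with equal upper quartiles, with DESeq2 size factors and with DESeq2 (-0.59 to -0.38). The level of Col4a6 over that of Col4a5, per kilobase, was 0.378, 0.318 and 0.430 in the SAN libraries at P14, against 0.0724, 0.0260 and 0.0911 in the RA libraries at P14. At E14.5 the ratio was 0.474, 0.591 and 0.470 in SAN and 0.366, 0.322 and 0.302 in RA. Smooth muscle and pericyte markers summed to 3427 to 4332 CPM in SAN and 1298 to 1673 CPM in RA at P14. At that stage 4 of the 8 were higher in SAN, with 3.21% of all genes higher. At E14.5 the marker sums were 1145 to 1248 CPM in SAN and 658 to 989.7 CPM in RA. The P4 sums overlapped, at 1101 to 3702 CPM in SAN and 751 to 1372 CPM in RA, and Myh11 alone was called there, higher in SAN. Sums of 6 epicardial markers were 307 to 474, 351.5 to 420 and 301 to 361 CPM in SAN at E14.5, P4 and P14. In RA they were 338 to 421, 132 to 274.5 and 82.15 to 145 CPM. Tbx18 alone was called higher in SAN at E14.5 and P14, and Upk3b, Tbx18 and Msln at P4. Of all genes 2.24, 2.97 and 3.21% were higher at E14.5, P4 and P14. No marker of either list was at 0 in a group. The part of smooth muscle, pericyte or epicardial cells in the Col4a6 difference was not tested.

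**Figure D4:**
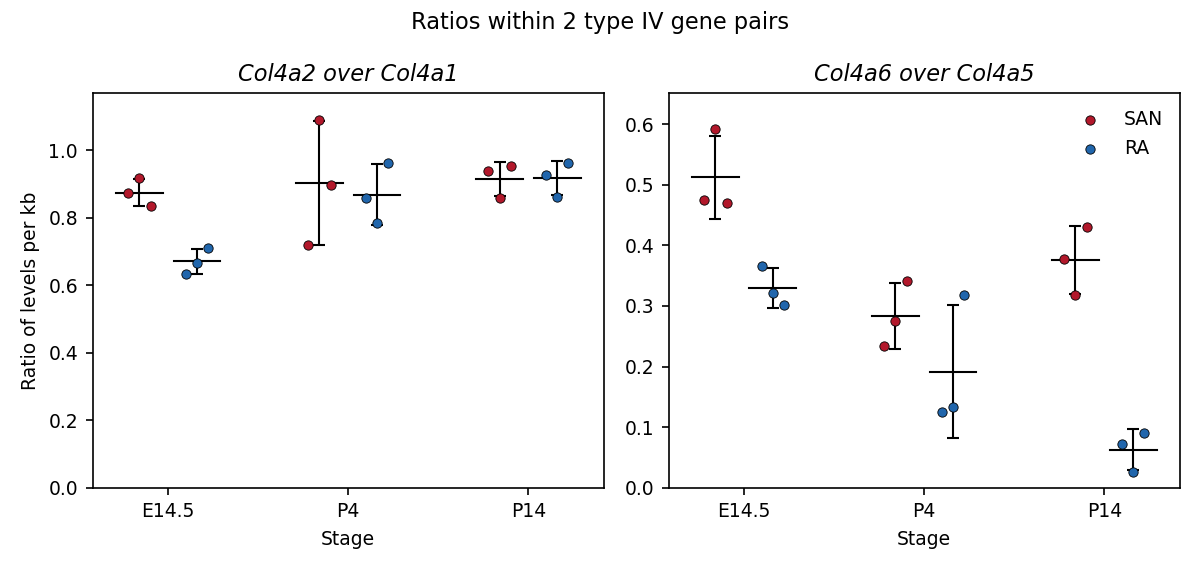
Ratio of the levels per kilobase of Col4a2 over Col4a1 and of Col4a6 over Col4a5 at E14.5, P4 and P14. Points are libraries, SAN in red left of RA in blue, and lines give the mean ± SD of 3 libraries; at P14 the second ratio is 0.318 to 0.430 in SAN and 0.0260 to 0.0911 in RA, while the first ratio overlaps.

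Col4a3 and Col4a4, the pair known from the filtration barrier of the kidney and from lung, appeared mainly at P14 in both tissues. Col4a4 had 99.3, 114 and 61.5 CPM in SAN at P14, against 50.7, 27.2 and 60.1 CPM in RA at P14. At P4 it had 8.16, 34.8 and 32.7 CPM in SAN and 1.83, 3.35 and 3.44 CPM in RA, and at E14.5 it had 8.03, 9.43 and 8.63 CPM in SAN and 2.82, 3.32 and 5.70 CPM in RA. SAN lay above RA at every stage, but the difference was not called at E14.5 or P14. The log2 difference was 2.55 ± 0.47 (SE; limma, adjusted p = 0.0011) at P4 and 1.52 ± 0.27 (SE; limma, adjusted p = 4.2e-04) over the mean of stages. Between P14 and P4 Col4a4 rose by 2.01 ± 0.47 (SE; limma, adjusted p = 0.014) in SAN and by 3.56 ± 0.47 (SE; limma, adjusted p = 1.2e-04) in RA. The SAN call was lost without any one of SAN P4 replicate 1 and SAN P14 replicates 1 and 2 (1.37 to 1.93). Col4a3 rose by 3.00 ± 0.62 (SE; limma, adjusted p = 0.0010) in SAN and by 3.64 ± 0.62 (SE; limma, adjusted p = 1.6e-04) in RA between P14 and E14.5.

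The multiplexins are basement membrane collagens, and their 2 members differed. Col15a1, known from the basement membranes of muscle and capillaries, had 21.98, 25.7 and 40.3 CPM in SAN at E14.5, 298, 245 and 229 CPM at P4 and 690.1, 794 and 392 CPM at P14. The RA libraries had 2.82, 6.26 and 4.72 CPM at E14.5, 72.02, 174 and 258 CPM at P4 and 360, 396 and 479 CPM at P14. At E14.5 all SAN libraries lay above all RA libraries, with a log2 difference of 2.44 ± 0.36 (SE; limma, adjusted p = 1.3e-04), and the groups overlapped at P4 and P14. Its rise between P14 and E14.5 was 4.35 ± 0.36 (SE; limma, adjusted p = 1.8e-08) in SAN and 6.24 ± 0.36 (SE; limma, adjusted p = 8.2e-11) in RA. The SAN change minus the RA change was -1.89 ± 0.50 (SE; limma, adjusted p = 0.0501), which did not pass the threshold. Col18a1, the source of endostatin, had 206, 143 and 181 CPM at E14.5 and 50.7, 98.3 and 41.6 CPM at P14 in RA, a change of -1.54 ± 0.51 (SE; limma, adjusted p = 0.033). This call was lost without the filter on low values, with equal upper quartiles, with DESeq2 size factors, with edgeR and with DESeq2 (-1.54 to -1.08) and without any one of RA E14.5 replicates 1, 2 and 3 and RA P14 replicates 1 and 3 (-1.69 to -1.29), and Col18a1 was called in no other comparison.

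Col8a1, a short-chain collagen of vessel walls and fibrotic heart, was higher in SAN at P4 and P14. It had 4.92, 1.91 and 1.91 CPM at E14.5, 7.06, 15.9 and 28.2 CPM at P4 and 112, 51.98 and 68.1 CPM at P14 in SAN, and 3.27, 1.84 and 6.23, 1.22, 2.93 and 0 and 15.2, 20.7 and 18.8 CPM at the same stages in RA. SAN lay above RA at P4 and P14 without overlap, and the log2 difference was 2.94 ± 0.56 (SE; limma, adjusted p = 0.0015) at P4, 1.97 ± 0.56 (SE; limma, adjusted p = 0.046) at P14 and 1.55 ± 0.32 (SE; limma, adjusted p = 0.0022) over the mean of stages. The call at P14 was lost with a pseudocount of 0.5, without the filter on low values, with equal upper quartiles, with DESeq2 size factors and with edgeR (1.80 to 2.09) and without any one of SAN P14 replicates 1, 2 and 3 and RA P14 replicates 1, 2 and 3 (1.67 to 2.22). Over the span from E14.5 to P14 it rose by 4.34 ± 0.56 (SE; limma, adjusted p = 7.6e-06) in SAN. Its class mate Col8a2 was called in no comparison of the 18 libraries. Col10a1, the chain of hypertrophic cartilage, was called in RA between P14 and E14.5 alone, at -1.45 ± 0.49 (SE; limma, adjusted p = 0.036). That call was lost with equal upper quartiles, with DESeq2 size factors, with edgeR and with DESeq2 (-1.86 to -1.17) and without any one of RA E14.5 replicates 1 and 2 and RA P14 replicates 2 and 3 (-1.50 to -1.15).

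Of the 4 transmembrane collagens, single-pass proteins whose collagenous part lies outside the cell, 2 were lower in SAN over the mean of stages and none was higher. Col23a1 had 24.1, 12.6 and 20.4 CPM in SAN at E14.5, against 178, 205 and 149 CPM in RA at E14.5. At P4 it had 3.12, 3.31 and 2.70 CPM in SAN, against 37.03, 50.5 and 31.4 CPM in RA, and at P14 3.03, 0.400 and 9.68 CPM in SAN, against 17.1, 9.80 and 16.98 CPM in RA. SAN lay below RA at each stage without overlap. The log2 difference between SAN and RA was -3.19 ± 0.50 (SE; limma, adjusted p = 3.0e-04) at E14.5, -3.31 ± 0.50 (SE; limma, adjusted p = 1.2e-04) at P4 and -1.96 ± 0.50 (SE; limma, adjusted p = 0.024) at P14. The P14 call was lost with edgeR (-1.69) and without any one of SAN P14 replicates 1 and 2 and RA P14 replicates 1 and 3 (-1.97 to -1.21). Between P14 and E14.5 Col23a1 changed by -2.31 ± 0.50 (SE; limma, adjusted p = 0.0017) in SAN and by -3.54 ± 0.50 (SE; limma, adjusted p = 2.4e-05) in RA.

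Col25a1, known from neurons and from muscle innervation in mice, was also lower in SAN, with 0.367, 3.01 and 4.35 CPM at P4 against 22.2, 16.9 and 39.2 CPM in RA at P4. Its log2 difference was -3.05 ± 0.78 (SE; limma, adjusted p = 0.019) at P4, a call lost with edgeR (-3.33) and without any one of SAN P4 replicate 1 and RA P4 replicate 3 (-2.72 to -2.46), and -2.29 ± 0.45 (SE; limma, adjusted p = 0.0012) over the mean of stages. Col13a1, a collagen of cell junctions and the neuromuscular synapse, fell between P14 and E14.5 by 2.65 ± 0.64 on the log2 scale in SAN (SE; limma, adjusted p = 0.0040). In RA the change was -2.30 ± 0.64 (SE; limma, adjusted p = 0.012). The call was lost with edgeR and with DESeq2 (-2.71 to -2.32) and without any one of RA E14.5 replicate 1 and RA P14 replicate 2 (-2.07 to -2.06). Atrial marker genes summed to 70.5 to 355 CPM in SAN and 1020 to 1142 CPM in RA at E14.5, and to 13.9 to 99.7 CPM in SAN and 2170 to 2784 CPM in RA at P4. At P14, where the Col25a1 groups overlapped, they summed to 113 to 233.5 CPM in SAN and 2366 to 3353 CPM in RA. None was at 0 in a group, and the part of atrial muscle cells in the Col23a1 and Col25a1 differences was not tested. Col17a1, the hemidesmosome chain, and Col7a1, the anchoring fibril chain of skin, stayed under 5 CPM and were called in no comparison. Col28a1, described in the peripheral nervous system of mice, had 9.82, 6.26 and 6.56 CPM in SAN at P14, against 2.34, 0.891 and 2.21 CPM in RA at P14, and at most 0.501 CPM in any earlier SAN library. It rose by 2.73 ± 0.40 (SE; limma, adjusted p = 3.2e-04) between P14 and P4 in SAN. This call was lost with edgeR (4.68).

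Genes that process collagen were described by lists. Of 20 measured genes for chain modification, folding and secretion, 3 were higher and none was lower in SAN over the mean of stages. The threshold was limma adjusted p under 0.05, and of all genes 6.11% were higher and 5.36% lower. The 3 were the transcription factor Creb3l1 (0.87 ± 0.19 SE; limma, adjusted p = 0.0027), the matrix protein and collagen chaperone Sparc (0.56 ± 0.10 SE; limma, adjusted p = 5.2e-04) and Leprel4 (0.50 ± 0.15 SE; limma, adjusted p = 0.030). Sparc had 6752, 5098 and 5660 CPM in SAN at P14, against 3222, 3422 and 3513 CPM in RA at P14. For P14 relative to E14.5, 2 of the 20 rose in each tissue (Sparc and the lysyl hydroxylase Plod1), and P4ha3 fell in SAN, with 9.74% of all genes higher in SAN and 5.99% in RA. Of 13 genes for propeptide cleavage and crosslinking, 1 was higher in SAN over the mean of stages, the procollagen peptidase enhancer Pcolce2 (1.04 ± 0.33 SE; limma, adjusted p = 0.043), and 2 were lower, the transglutaminase Tgm2 (-0.81 ± 0.16 SE; limma, adjusted p = 0.0011) and the tolloid-like protease Tll1 (-1.52 ± 0.44 SE; limma, adjusted p = 0.025). Of these 13, 5 rose in SAN between P14 and E14.5 (Lox, Loxl1, Loxl4, Adamts2 and Pcolce2) and 2 rose in RA (Adamts2 and Pcolce2), where 9.74% of all genes rose in SAN and 5.99% in RA. The procollagen peptidase Adamts2 rose by 4.83 ± 0.58 (SE; limma, adjusted p = 3.6e-06) in SAN and by 3.71 ± 0.58 (SE; limma, adjusted p = 7.3e-05) in RA. The crosslinking enzyme Lox had 9.54, 38.6 and 79.05 CPM in SAN at E14.5 and 264, 184 and 212 CPM at P14, a rise of 2.76 ± 0.56 (SE; limma, adjusted p = 8.9e-04), where RA gave 0.58 ± 0.56 (SE; limma, adjusted p = 0.49). The difference between the Lox changes of the 2 tissues was 2.19 ± 0.79 (SE; limma, adjusted p = 0.16), which did not pass the threshold. Of 46 tested genes of the modification, crosslinking, receptor and collagenase lists, 0 passed limma's test of the difference between the changes of the 2 tissues, nor did any with edgeR or DESeq2. An unadjusted limma p under 0.05 was reached by 9 of the 46. Of all genes 2.27% passed, and 14.9% had an unadjusted p under 0.05.

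Of 10 collagen receptor genes, 9 were tested and 2 were higher in SAN over the mean of stages, with 6.11% of all genes higher. These were Ddr2, a receptor kinase for fibrillar collagen that is also on the fibroblast list, at 0.88 ± 0.19 (SE; limma, adjusted p = 0.0033), and the integrin chain gene Itga10 at 1.97 ± 0.31 (SE; limma, adjusted p = 1.1e-04). Itga10 had 32.3, 27.8 and 22.2 CPM in SAN at P4, against 1.93, 0.629 and 2.15 CPM in RA at P4, and the groups did not overlap. Between P14 and E14.5 in SAN, 5 of the 9 rose (Ddr2, Itga1, Itga11, Lair1 and Mrc2) and Ddr1 fell. In RA, Ddr2 rose and Ddr1 and Itga10 fell. Of all genes, 9.74% rose and 14.5% fell in SAN, and 5.99% rose and 16.7% fell in RA. Of 4 collagenase genes, the gelatinase Mmp2 rose by 1.88 ± 0.32 (SE; limma, adjusted p = 1.7e-04) in SAN and by 1.13 ± 0.32 (SE; limma, adjusted p = 0.014) in RA. Mmp13 was lower in SAN over the mean of stages (-0.83 ± 0.26 SE; limma, adjusted p = 0.040), at a level no higher than 0.246 CPM in any SAN library.

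In the Isl1 set, CrePos replicates 1 and 3 had lower levels of the fibrillar chains Col1a1, Col1a2, Col3a1 and Col5a1 than CreNeg. CrePos replicate 2 lay within the CreNeg range for each of these genes. The counts of Isl1 itself do not check the labels: Isl1 had 71.7 and 53.9 CPM in CrePos replicates 1 and 3, against 67.4, 88.5, 47.8 and 83.2 CPM in CreNeg, and a whole-gene count can include reads outside the deleted part. The 4 node genes summed to 278 to 306 CPM in CrePos and 495 to 701 CPM in CreNeg, with Hcn4 (-1.25 ± 0.22 SE; limma, adjusted p = 0.0051) and Tbx3 (-2.80 ± 0.44 SE; limma, adjusted p = 0.0027) lower in CrePos. The atrial genes Gja5 (3.19 ± 0.50 SE; limma, adjusted p = 0.0026) and Nppa (2.51 ± 0.58 SE; limma, adjusted p = 0.036) were higher in CrePos. In replicate 2, left out of the fit, Isl1 had 2.85 CPM and Myl2 1032 CPM. Of the 42 members 35 passed the filter of at least 1 CPM in at least 2 libraries, and 7 did not (Col4a4, Col5a3, Col6a4, Col6a5, Col17a1, Col22a1 and Col28a1). Col28a1 had no read in any of the 7 libraries, which allows up to 0.0247 to 0.0530 CPM in a library. Of the 35, 4 were called lower and 0 higher in CrePos, and 14 had an unadjusted limma p under 0.05, all lower. Of all 14595 genes tested 20.2% had an unadjusted p under 0.05 (18.2% lower), and 2.00% were called, 0.678% higher and 1.32% lower in CrePos. The median log2 difference was -0.93 over the members and -0.42 over all genes tested. Both CrePos libraries in the fit had a lower total CPM than every CreNeg library. Equal upper quartiles moved the median of all genes to -0.03 and DESeq2 size factors moved it to -0.01.

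Col1a2 had 278 and 168 CPM in CrePos, against 1313, 516, 1151 and 731 CPM in CreNeg, and the groups did not overlap. The log2 difference was -2.002 ± 0.33 (SE; limma, adjusted p = 0.0035). Col1a1 had 329.9 and 204 CPM in CrePos, against 1208, 467, 1129 and 681 CPM in CreNeg, a difference of -1.64 ± 0.33 (SE; limma, adjusted p = 0.018). Col5a1 had 68.7 and 50 CPM in CrePos, against 276, 103, 158 and 135 CPM in CreNeg, a difference of -1.41 ± 0.32 (SE; limma, adjusted p = 0.033). Col3a1 had 518 and 352 CPM in CrePos, against 1262, 646, 1081 and 851 CPM in CreNeg, a difference of -1.12 ± 0.27 (SE; limma, adjusted p = 0.044). CrePos replicate 2 had 933 CPM of Col1a2, 991 of Col1a1, 128 of Col5a1 and 860.3 of Col3a1, within the range of CreNeg for each gene. With that library in the fit none of the 4 was called (-1.30, -0.999, -1.03 and -0.78). Without CrePos replicate 3 the CrePos arm is 1 library, assumed to vary like CreNeg, and none was called (-1.64, -1.30, -1.18 and -0.84). None was called with edgeR or without the filter either, and Col1a2 alone remained called under both other scalings. Without CrePos replicate 1, again with a CrePos arm of 1 library, Col5a1 was not called (-1.63), nor was Col3a1 (-1.40), which was also lost without CreNeg replicate 1, 3 or 4 (-0.97, -1.05 and -1.16).

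None of the 5 type IV chains tested was called. Col4a5 had 100.7 and 101.8 CPM in CrePos, against 139.3, 134.3, 136.8 and 129.5 CPM in CreNeg. Col4a6 had 44.4 and 32.8 CPM in CrePos, against 90.4, 56.3, 81.3 and 70.1 CPM in CreNeg. For both genes the fitted CrePos libraries lay below all CreNeg libraries, as did CrePos replicate 2 (73.4 and 24.2 CPM). The groups overlapped for Col4a1 and Col4a2. Col4a1 had 153 and 91.5 CPM in CrePos, against 158, 115, 108 and 159 CPM in CreNeg, a log2 difference of -0.17 ± 0.26 (SE; limma, adjusted p = 0.71), whose sign turned positive under both other scalings. Col4a2 had 124 and 67.4 CPM in CrePos, against 134, 109.7, 89.7 and 121 CPM in CreNeg, a difference of -0.29 ± 0.27 (SE; limma, adjusted p = 0.53) that turned in the same way. Of the other named chains, Col5a2 gave -1.14 ± 0.30 (SE; limma, adjusted p = 0.071), Col6a1 -0.96 ± 0.31 (SE; limma, adjusted p = 0.13), Col6a2 -0.83 ± 0.28 (SE; limma, adjusted p = 0.14) and Col6a3 -0.77 ± 0.37 (SE; limma, adjusted p = 0.25), and none passed. Col15a1 varied widely within CreNeg, at 19.5, 0.187, 2.60 and 12.9 CPM, against 2.60 and 0 CPM in CrePos. The 42 genes together made up 0.270 and 0.216% of the reads in CrePos, against 0.642, 0.339, 0.561 and 0.451% in CreNeg, and 0.527% in CrePos replicate 2. Of the crosslinking genes, Lox (-1.60 ± 0.37 SE; limma, adjusted p = 0.035) and Loxl3 (-2.26 ± 0.49 SE; limma, adjusted p = 0.025) were lower in CrePos, 2 of 10 tested, with 1.32% of all genes lower. Pdgfra, a receptor gene of fibroblasts and their precursors, had 46.1 and 27.03 CPM in CrePos, against 116, 137, 145 and 145 CPM in CreNeg, and it was the one fibroblast marker of 11 tested that was called. The fibroblast list summed to 222 to 404 CPM in CrePos and 392 to 715 CPM in CreNeg. The cartilage and valve list summed to 1.22 to 9.51 CPM in CrePos and 24.1 to 29.4 CPM in CreNeg, with Sox9 lower in CrePos. Acan was near or at 0 in both groups, with no read in the fitted CrePos libraries and 0, 0, 0 and 0.0883 CPM in CreNeg. It had 0.998 CPM in CrePos replicate 2. The atrial list summed to 238 to 335 CPM in CrePos and 16.3 to 79.4 CPM in CreNeg, and the part of these cell types in the collagen differences was not tested.

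**Figure D5:**
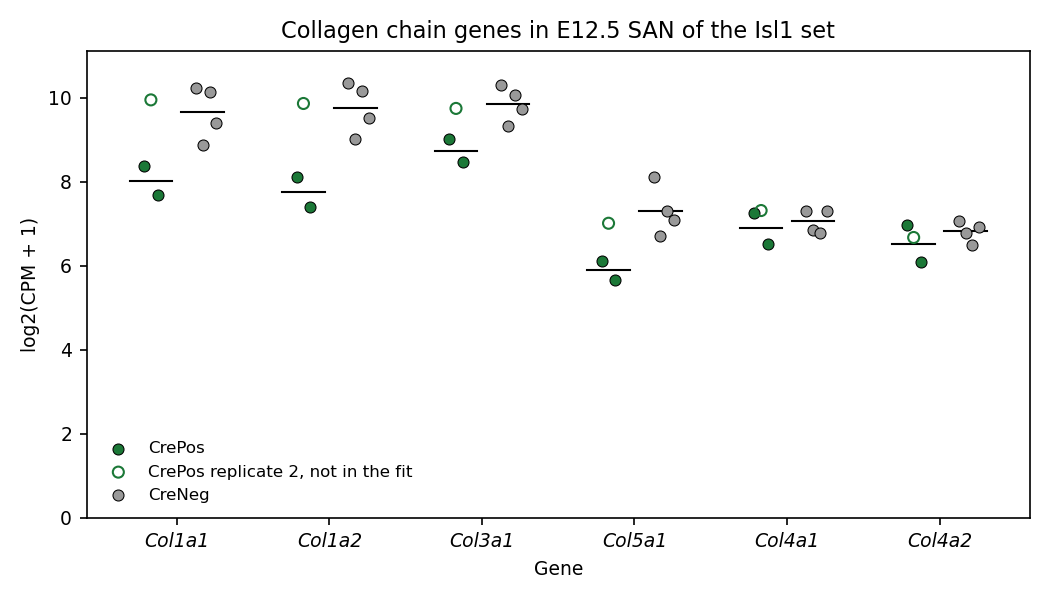
Level of 6 members as log2(CPM + 1) in E12.5 SAN, CrePos in green left of CreNeg in grey. Filled points are libraries in the fit, the open point is CrePos replicate 2, and lines are means of the fitted libraries; the 2 fitted CrePos libraries lie below all 4 CreNeg libraries for Col1a1, Col1a2, Col3a1 and Col5a1 and overlap with them for Col4a1 and Col4a2.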

How the data were processed

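RNA sequencing libraries of laser-captured SAN and RA (18) and of E12.5 SAN of the Isl1 set (7) were analysed. The values in the table are a signal per gene, read counts divided by a factor for each library, which the authors deposited; per the submitters' processing notes TopHat2 2.0.6 and edgeR were used with build mm8. The strand setting of the counting is not given in the sources used here. Whole reads were recovered (at least 99.995% of values whole within 0.1 read in each library), and all deposited values were divided by 24.34 to give CPM, so the deposited scaling between libraries was kept and library totals differ. Limma 3.58.1 (R 4.3.3) was fitted with a trend to log2(CPM + 1), with 6 group means over the 18 libraries and separately for 4 CreNeg against CrePos replicates 1 and 3, on genes of at least 1 CPM in at least 3 libraries (2 in the Isl1 set): 17568 and 14595 genes. P-values were adjusted by Benjamini-Hochberg over all genes tested, with a threshold of 0.05. Alternatives were a pseudocount of 0.5, no filter, other scalings (equal upper quartiles, DESeq2 size factors), edgeR 4.0.16 and DESeq2 1.42.0 on the recovered reads, the replicate number as a block, and each library left out. Limits for a gene with no read are 3 reads and cover counting error only.

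All members were accounted for. Named with values were 12 core chains and, in each comparison, up to 6 called members in each direction with the smallest p and a mean of at least 5 CPM in the higher group, with up to 4 genes of each context list; other members named in the text were chosen after their values were seen. The gene family and the lists were chosen with earlier results of these data known; within the family, members follow from their names. Exon lengths and overlaps came from GENCODE vM21 (GRCm38), used for lengths and overlap alone, and promoter windows from RefSeq (GRCm38.p6). Replicate libraries differed by more than sampling noise in every pair (lowest chi-square per degree of freedom 8.42). The Schwann and glial marker list is not reported here.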

Additional observations from a re-analysis of the deposited data

Results flagged for a closer look

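Between P14 and E14.5, 3 members changed differently in SAN and RA by a test of the difference itself. The SAN change minus the RA change was 2.345 on the log2 scale for Col4a6, 2.055 for Col5a2 and 3.321 for Col20a1 (limma over all genes; adjusted p-values stand in the report).

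CrePos replicate 2, which is outside the fit, held 3 members of at least 1 CPM above every CreNeg library: Col4a3 at 3.901 CPM, Col9a3 at 15.41 CPM and Col9a2 at 5.703 CPM. No CreNeg library stood far from the others by the gap to its nearest neighbour over the group's range for any of the 12 members tested for it.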

How the results depend on the processing

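Of 150 called gene results, 95 kept their call under every alternative and left-out library, and 112 under all alternatives other than leaving out a library. Counts of called members stayed within 1.5 times the reported count except as follows. For SAN against RA at E14.5 edgeR called 3 (5 reported). At P14 equal upper quartiles called 6 and edgeR called 6 (10 reported). For P14 against P4 in SAN edgeR called 7 (12 reported). For the difference between the changes DESeq2 called 5 (3 reported). For CrePos against CreNeg (4 reported), no filter gave 0 and edgeR gave 0, each with 15 members at an unadjusted p under 0.05 (14.0% of all genes without the filter and 17.5% with edgeR), equal upper quartiles gave 1, DESeq2 size factors gave 1, and inclusion of CrePos replicate 2 gave 1.

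With 1 library left out at a time, the counts ranged from 13 to 18 for SAN against RA over the mean of stages, 3 to 6 at E14.5, 7 to 10 at P4 and 3 to 7 at P14. In SAN they ranged from 13 to 21 (P4 against E14.5), 5 to 12 (P14 against P4) and 24 to 25 (P14 against E14.5), and in RA from 12 to 18, 5 to 7 and 21 to 24. They ranged from 2 to 4 for the difference between the changes and from 0 to 4 for CrePos against CreNeg, where 0 came without CrePos replicate 3, with 9 members at an unadjusted limma p under 0.05 (5.19% of all genes) and a CrePos arm of 1 library, assumed to vary like CreNeg. At E14.5 the count was 3 without SAN or RA replicate 1. For P14 against P4 it was 5 in SAN without P4 or P14 replicate 1, 6 without P4 or P14 replicate 2, and 5 in RA without P4 replicate 1 or P14 replicate 3.

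Replicate numbers did not pair the libraries: 2 of 9 SAN and RA pairs had a correlation of deviations over 0.1 (-0.131 to 0.192 over 11619 genes), 3 of 9 libraries matched their own number best, and the 2 Isl1 pairs had -0.00577 to 0.00282. With the replicate block 13 members were called in CrePos against CreNeg, all lower, with 5.88% of all genes called lower. In that fit CreNeg replicates 2 and 4 have no CrePos partner and add nothing to the difference. Few residual degrees of freedom are left, so its count is no stronger result than the count without the block.

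Signs turned for results that were not called. Col5a2 over the mean of SAN against RA was -0.0263 with equal upper quartiles and -0.0805 to 0.1723 over the left-out libraries, negative without 5 of them (-0.0805, -0.0462, -0.0114, -0.0083 and -0.0021). Col5a2 in RA between P14 and E14.5 was 0.0156 with DESeq2 size factors and 0.015 with DESeq2. Col18a1 in SAN between P14 and E14.5 was 0.0045 with DESeq2 and -0.6086 to 0.0585 over the left-out libraries, the highest without SAN E14.5 replicate 3. In CrePos against CreNeg, equal upper quartiles, DESeq2 size factors and DESeq2 gave 0.2819, 0.3061 and 0.2978 for Col4a1, 0.1546, 0.1786 and 0.1853 for Col4a2, and 0.0573, 0.0811 and 0.0481 for Col18a1, and over the left-out libraries -0.5357 to 0.2033 for Col4a1 and -0.7277 to 0.1427 for Col4a2, both highest without CrePos replicate 3. The causes were not tested. Equal upper quartiles moved the median of all genes from 0.10 to -0.04 for SAN against RA at P14 and from -0.24 to -0.01 for P14 against P4 in RA. Depth limits the members under 5 CPM, where 1 read was worth up to 0.215 CPM.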
